A study of Danio rerio with 2 samples.

Results

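The genes described here are 61 zebrafish genes of lipid metabolism: cytochrome P450 enzymes, fatty acid, sterol and steroid enzymes, lipases, and the kinases, phosphatases and transfer proteins of phosphoinositide lipids. They were chosen by symbol. The deposited tables do not list every lipid symbol looked for: of 463 others, 109 were in them. Shares and ranks over all genes below cover only the listed genes that reached the minimum mean given next. Of the 4591 genes listed in both deposited tables, 83 had a symbol with one of the fixed beginnings (such as cyp followed by a digit, hadh, hsd, mtmr or pik3), and 61 of these had a mean expression value of at least 1 over both libraries. Messenger RNA came from whole embryos of the Tuebingen strain collected 4.7 h after fertilization. One library was made from embryos injected with 5 ng of a phf14 morpholino at the 1-cell stage, and the other from embryos injected with 5 ng of a standard morpholino at that stage. Morpholinos are synthetic antisense oligomers used to block the splicing or translation of 1 transcript. PHF14 is a histone H3 reader, and the series asks about its part in activation of the zygotic genome.

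Each condition has 1 library, so no value below has a replicate error and none is tested. How many embryos were pooled is not stated in the labels, and phf14 itself was not analysed here, so no check of the knockdown is given. Sequencing depth is unknown. The column is titled only as expression, so the values have an unstated unit and levels are compared between libraries for 1 gene, not between genes. Differences are given as the log2 ratio of the phf14 over the standard morpholino library after adding 1 to each value, which understates the change of low values. In whole embryos, fewer cells of a type and less RNA per cell cannot be told apart.

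Cytochrome P450 enzymes are haem proteins that oxidise steroids, retinoids, vitamin D, fatty acids and foreign compounds. Fatty acids are activated to acyl-CoA, elongated, stored or broken down by beta-oxidation, and the early zebrafish embryo draws its lipid from the yolk. Phosphoinositides are membrane lipids whose phosphorylated head groups mark organelles: kinases such as the class II and class III PI 3-kinases write these marks on endosomes, and myotubularins remove them.

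The 61 genes as a set lay close to the rest of the tables, but their role groups lay on different sides. The median log2 ratio was 0.11, the same as the 0.11 over all 3524 genes that reached a mean of 1. Higher values in the phf14 morpholino library were seen for 41 of the 61 (67.2%), against 62.3% of all genes, and lower values for 20 (32.8%), against 37.2%. Relative to the median gene, 31 lay above and 30 below. Phosphoinositide kinases and myotubularins (7 genes each) had positive medians (0.33 and 0.40), as had the 4 genes with symbols that begin with smpd (0.31). The 13 cytochrome P450 genes (-0.18), the 3 acyl-CoA synthetases (-0.19) and the 3 elongases (-0.13) had negative ones. These medians kept their sign under every scaling tried, but a median of 3 or 4 genes rests on its middle genes. In each group of 3 named here, 1 gene was higher.

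**Figure D1:**
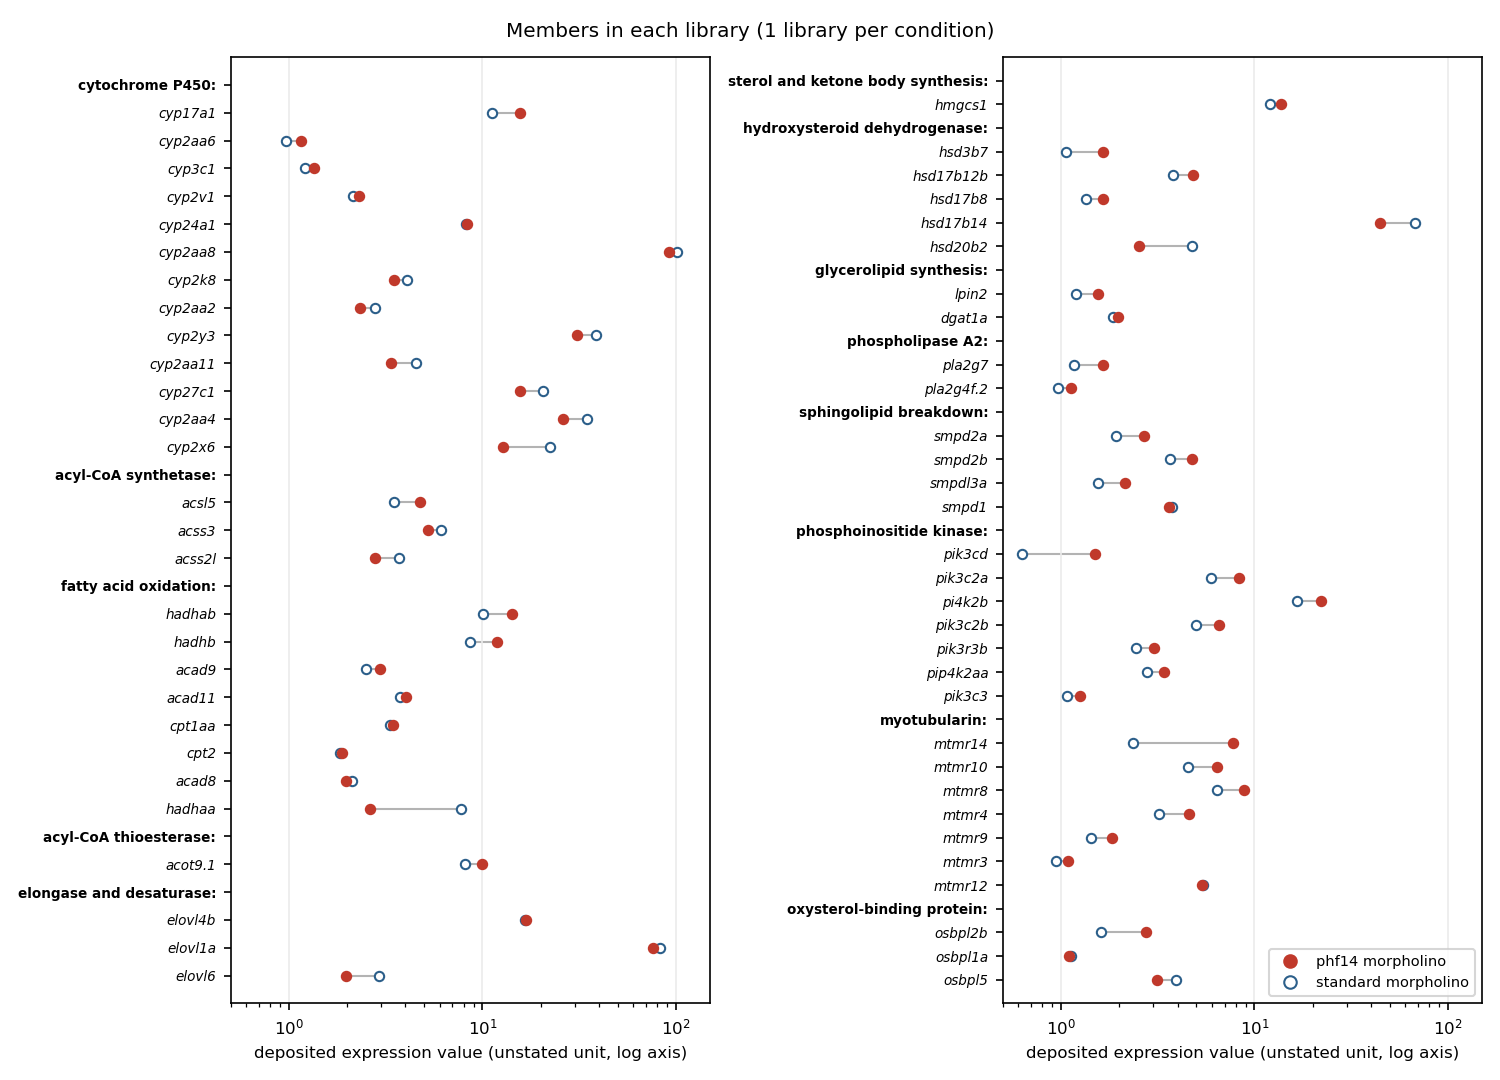
Deposited expression value of 59 of the 61 genes (log axis, unstated unit) in the phf14 morpholino library (filled) and the standard morpholino library (open), 1 library each, ordered within role groups by log2 ratio. The widest gaps belong to hadhaa, mtmr14 and pik3cd, and all 7 phosphoinositide kinases have the filled point to the right, where 62.3% of all genes were higher.

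Few of these genes lay far from level. Past 1.5-fold there were 2 genes higher in the phf14 morpholino library (3.28% of 61, against 4.97% of all genes) and 4 lower (6.56%, against 2.87%). Past 2-fold there was 1 higher, mtmr14 (1.64%, against 0.341%), and 1 lower, hadhaa (1.64%, against 0.482%). Counts this small move with a single gene. The 2 higher genes were mtmr14 and pik3cd, and the 4 lower ones hadhaa, cyp2x6, hsd20b2 and hsd17b14. Of these, pik3cd reached the minimum mean only through the phf14 morpholino library. The number of higher genes fell to 1, against 4 lower, when ratios were centred on the median gene, since pik3cd then no longer passed.

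Genes with the highest levels had lower ratios in these tables, which bears most on groups with members at such levels. Among the 13 members with a mean of at least 10, 6 were higher and 7 lower with the phf14 morpholino, with a median of -0.13. Of the 1004 such genes in the tables, 484 were higher and 519 lower, with a median of -0.01. Among the 48 members under that mean, 35 were higher and 13 lower, with a median of 0.12. Of all 2520 genes under it, 1713 were higher and 793 lower, with a median of 0.14. Each ratio was therefore also set against the median of genes of like level, taken in 10 bins of 352 or 353 genes. On that scale 33 members were above and 28 below. The bin medians lay between 0.07 and 0.18, except for -0.15 in the bin of the highest levels. That bin held 3 P450 genes and no phosphoinositide kinase or myotubularin.

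**Figure D2:**
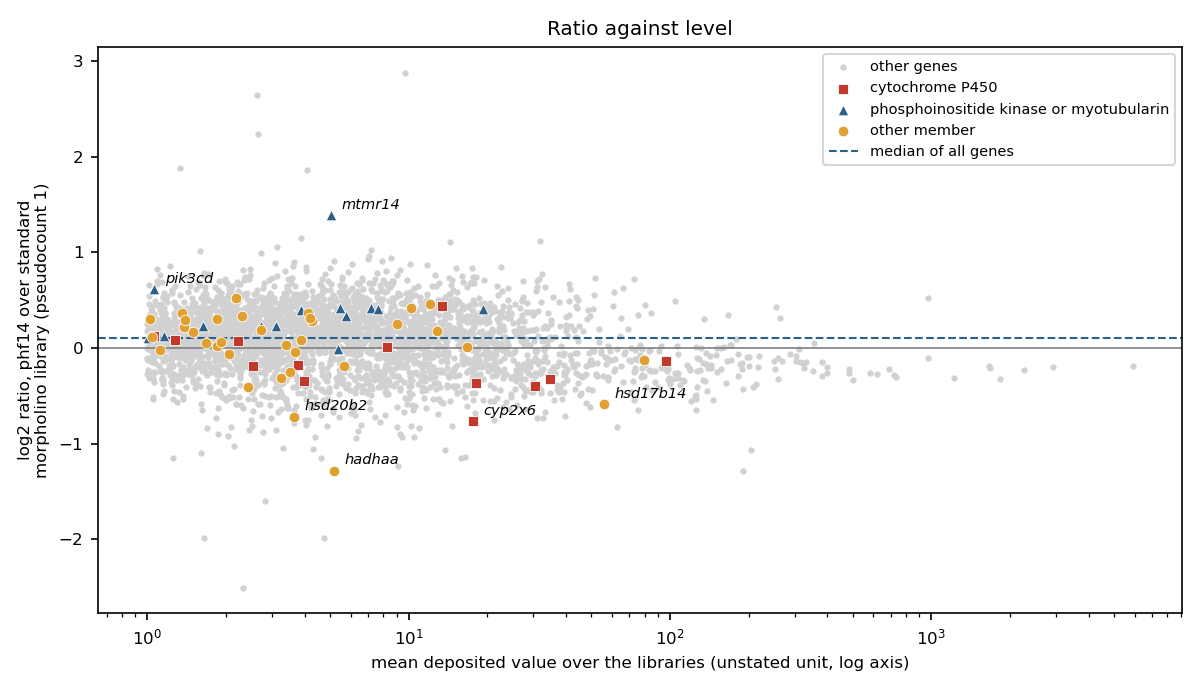
Log2 ratio of the phf14 over the standard morpholino library against mean deposited value (log axis, unstated unit) for all 3524 genes that reached a mean of 1. Of the P450 genes (squares) 11 of 13 lie under the all-gene median of 0.11 (dashed), and of the phosphoinositide kinases and myotubularins (triangles) 12 of 14 lie above it.

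Among the cytochrome P450 genes, 8 of 13 were lower with the phf14 morpholino, against 37.2% of all genes, and 5 were higher. Of the 13, 10 were below the median of genes of like level. Most of the lower ones belong to the CYP2 family, a large family that includes many drug and fatty acid oxidising enzymes. In this family 7 of 9 were lower, and the median was -0.18. The widest difference was that of cyp2x6, at 12.78 in the phf14 and 22.41 in the standard morpholino library (log2 ratio -0.76). It had the third lowest ratio among the 352 genes of its level bin. Outside the cyp2aa genes, given below, the other lower ones were cyp2y3, at 30.68 in the phf14 and 38.74 in the standard morpholino library (-0.33), and cyp2k8, at 3.48 in the phf14 and 4.07 in the standard morpholino library (-0.18). The CYP2 gene cyp2v1 was nearly level, at 2.30 in the phf14 and 2.14 in the standard morpholino library (0.07), and it fell below 0 after centring on the median gene. Of the 4 P450 genes outside the CYP2 family, 1 was lower. Relative to genes of like level, however, 3 of those 4 were below, next to 7 of 9 in the CYP2 family.

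The cyp2aa genes form a cluster: in the RefSeq annotation of GRCz12tu the 5 members lie side by side on 1 chromosome, with 0 to 2 protein-coding genes between neighbours. cyp2aa4 was at 26.10 in the phf14 and 34.68 in the standard morpholino library (log2 ratio -0.40). The adjacent cyp2aa11 was at 3.38 in the phf14 and 4.56 in the standard morpholino library (-0.34). cyp2aa2 had 2.32 in the phf14 and 2.77 in the standard morpholino library (-0.18). The cluster was thus lower in 4 of 5 genes, against 37.2% of all genes, but not evenly. cyp2aa8, at 92.08 in the phf14 and 101.06 in the standard morpholino library (-0.13), matched genes of its own level, being 0.02 above their median. cyp2aa6, just over the minimum at 1.15 in the phf14 and 0.97 in the standard morpholino library (0.13), was the single higher member. It reached the minimum mean only through the phf14 morpholino library, which favours its count as a higher gene. These genes are close copies, and how the authors' counting divided shared reads is not stated in the sources used. The identifier deposited for cyp2aa11 carries the name cyp2aa7 in the reference table, so which of the 2 copies it measures is uncertain.

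P450 genes with a known hormone or vitamin substrate did not share 1 direction. cyp17a1, whose enzyme makes androgen precursors and is needed for sex steroids, was at 15.55 in the phf14 and 11.22 in the standard morpholino library. Its log2 ratio of 0.44 was the highest of the P450 genes. cyp27c1, which converts vitamin A1 to vitamin A2 in the zebrafish eye, went the other way, at 15.71 in the phf14 and 20.47 in the standard morpholino library (-0.36). cyp24a1, which inactivates vitamin D, was at 8.35 in the phf14 and 8.25 in the standard morpholino library (0.02, below 0 after centring). cyp3c1, of the CYP3 family, was at 1.35 in the phf14 and 1.21 in the standard morpholino library (0.09, below 0 after centring). A further 7 P450 genes were under the minimum, of which 3 were higher, where 62.3% of all genes that reached it were. Among the 7, cyp26c1, which degrades retinoic acid, was at 0.76 in the phf14 and 0.86 in the standard morpholino library. cyp2r1 was at 1.01 in the phf14 and 0.67 in the standard morpholino library, and cyp11c1 at 0.98 in the phf14 and 0.90 in the standard. With these 7 genes, 12 of 20 P450 genes were lower and the P450 median was -0.06.

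Most counted markers of both extraembryonic layers, mesendoderm and ectoderm were lower in the phf14 morpholino library, as were 8 of the 13 P450 genes. Markers are counted here where they were among the deposited genes and their mean reached 1. Deposited were 15 of 18 enveloping layer, 8 of 13 yolk syncytial layer, 8 of 10 mesendoderm and 4 of 9 ectoderm markers. The same held for 8 of 16 oocyte-supplied and 5 of 9 germ plasm symbols. All 15 enveloping layer markers were lower in embryos given the phf14 morpholino, where they summed to 2004, against 2492 in the standard morpholino library. All 7 yolk syncytial layer markers were lower too, with sums of 1443 in the phf14 and 1842 in the standard morpholino library. So were 7 of 8 mesendoderm markers, with sums of 774 in the phf14 and 945 in the standard morpholino library, and 3 of 4 ectoderm markers, with sums of 191 in the phf14 and 245 in the standard morpholino library. Oocyte-supplied transcripts were higher in 7 of 8 cases, with sums of 67.6 in the phf14 and 49.7 in the standard morpholino library. All 5 germ plasm markers were higher as well, and buc is in both lists. Over all genes, 62.3% were higher and 37.2% lower. Relative to genes of like level, 14 of 15 enveloping layer and all 7 yolk syncytial layer markers were below. So were 7 of 8 mesendoderm and 3 of 4 ectoderm markers. On that scale 5 of 8 oocyte-supplied and 4 of 5 germ plasm transcripts were above. No listed marker among the deposited genes was at 0, and the other listed markers have no value. The sums add genes in an unstated unit and are led by the highest genes. Among yolk syncytial layer markers, apoeb was at 1090 in the phf14 and 1355 in the standard morpholino library. Among ectoderm markers, sox3 was at 162 in the phf14 and 219 in the standard morpholino library. Whether the share of these cells or the amount of maternal RNA has a part in the ratios of the lipid genes was not tested.

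**Figure D3:**
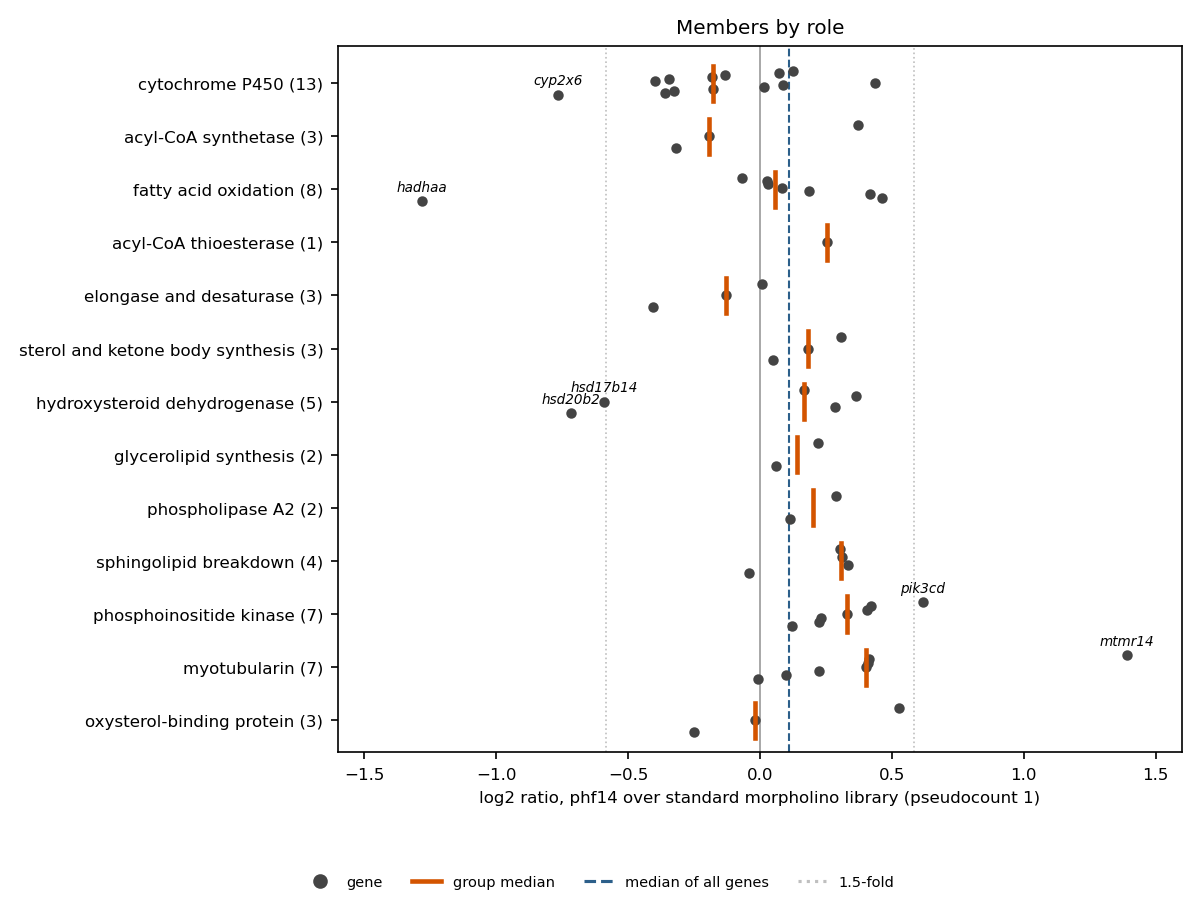
Log2 ratio of the phf14 over the standard morpholino library for each gene (points), by role group with the number of genes, with the group median (bar), the all-gene median of 0.11 (dashed) and 1.5-fold (dotted). The kinases and myotubularins lie mostly to the right of the dashed line and the P450 genes mostly to its left, while hadhaa and mtmr14 lie far outside their groups.

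Beta-oxidation genes were near level apart from the mitochondrial trifunctional protein, the enzyme that carries out the last steps of long-chain fatty acid oxidation. It is built of alpha subunits, encoded in zebrafish by the duplicates hadhaa and hadhab, and beta subunits, encoded by hadhb. hadhaa was at 2.62 in the phf14 and 7.79 in the standard morpholino library (log2 ratio -1.28), the lowest of the 353 genes of its level bin and the sixth lowest of all 3524. The duplicate hadhab was at 14.22 in the phf14 and 10.05 in the standard morpholino library (0.46). hadhb was at 11.87 in the phf14 and 8.63 in the standard morpholino library (0.42). The alpha subunit duplicates thus lay 1.74 log2 units apart, while hadhab and hadhb were both higher by about the same ratio.

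The deposited values of the duplicates were also added, although the unstated unit may weigh the genes differently. The sum was 16.84 in the phf14 and 17.84 in the standard morpholino library (log2 ratio of the sums -0.08, next to a median of 0.11 over all genes). The RefSeq annotation places hadhaa next to hadhb with no protein-coding gene between them, and hadhab on another chromosome. The 2 neighbours therefore had opposite ratios, and the beta subunit gene had the ratio of the more distant alpha subunit gene. How the authors' counting divided reads between hadhaa and hadhab is not stated in the sources used. Whether that has a part in their ratios was not tested. The other duplicate pair among the members differed by 0.02: the neutral sphingomyelinase genes smpd2a and smpd2b had log2 ratios of 0.33 and 0.31.

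The other oxidation genes stayed between -0.07 and 0.19. The carnitine palmitoyltransferase genes, whose enzymes carry long-chain acyl groups into mitochondria, were flat: cpt1aa was at 3.43 in the phf14 and 3.34 in the standard morpholino library, and cpt2 at 1.88 in the phf14 and 1.83 in the standard morpholino library (both 0.03, below 0 after centring). The acyl-CoA dehydrogenase genes acad8, which acts on valine breakdown products, acad11 and acad9, which also helps assemble respiratory complex I, had log2 ratios of -0.07, 0.08 (below 0 after centring) and 0.19. The median of the oxidation group was 0.06, and it turned negative (-0.05) after centring on the median gene.

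Genes that activate or lengthen fatty acids were mixed. The long-chain acyl-CoA synthetase gene acsl5 was at 4.78 in the phf14 and 3.47 in the standard morpholino library (log2 ratio 0.37). acss2l, a short-chain (acetyl-CoA) synthetase gene, was at 2.78 in the phf14 and 3.71 in the standard morpholino library (-0.32), and the related acss3 had -0.19. The single thioesterase gene, acot9.1, was at 9.95 in the phf14 and 8.17 in the standard morpholino library (0.26). elovl6, which lengthens saturated and monounsaturated fatty acids, was at 1.96 in the phf14 and 2.92 in the standard morpholino library (-0.41). elovl1a was at 75.76 in the phf14 and 82.86 in the standard morpholino library (-0.13, 0.02 above genes of like level), and elovl4b, whose enzyme makes very long chains, was at 16.72 in the phf14 and 16.64 in the standard morpholino library (0.01, below 0 after centring).

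Of the sterol synthesis genes, hmgcs1, the cytosolic HMG-CoA synthase of the mevalonate pathway, was at 13.71 in the phf14 and 11.98 in the standard morpholino library (0.18). The gene of the rate-limiting reductase, hmgcra, was under the minimum at 0.23 in the phf14 and 0.14 in the standard morpholino library.

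Hydroxysteroid dehydrogenase genes were split into 2 low and 3 higher ones. hsd20b2, whose enzyme takes part in cortisol breakdown in zebrafish, was at 2.52 in the phf14 and 4.78 in the standard morpholino library (log2 ratio -0.72), ninth from the bottom of the 352 genes of its level bin. hsd17b14 was at 44.36 in the phf14 and 67.25 in the standard morpholino library (-0.59), in eleventh place from the bottom of its bin. Relative to genes of like level its ratio was -0.44, short of 1.5-fold. Both stayed negative under every setting tried. hsd3b7, an enzyme gene of bile acid synthesis, was at 1.65 in the phf14 and 1.06 in the standard morpholino library (0.36). hsd17b12b, which acts in fatty acid elongation, had 0.28, and hsd17b8, whose human counterpart acts in mitochondrial fatty acid synthesis, had 0.17.

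Glycerolipid and phospholipase genes were few among the members. The triglyceride synthesis gene dgat1a was at 1.97 in the phf14 and 1.85 in the standard morpholino library (0.06, below 0 after centring), and the phosphatidate phosphatase gene lpin2 at 1.56 in the phf14 and 1.2 in the standard morpholino library (0.22). pla2g7, which inactivates platelet-activating factor, was at 1.64 in the phf14 and 1.16 in the standard morpholino library (0.29). pla2g4f.2 had 0.11, and it reached the minimum mean only through the phf14 morpholino library. Of the genes with symbols that begin with smpd, smpd2a, smpd2b and smpdl3a had ratios between 0.30 and 0.33. smpd2a, for example, was at 2.69 in the phf14 and 1.93 in the standard morpholino library. The lysosomal acid sphingomyelinase gene smpd1 stood apart from these at 3.61 in the phf14 and 3.75 in the standard morpholino library (-0.04).

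All 7 phosphoinositide kinase genes were higher with the phf14 morpholino, against 62.3% of all genes. Each stayed above 0 under every scaling and above the median of genes of like level, but pik3c3 by only 0.01. pik3cd, the catalytic subunit of the class I PI 3-kinase known from leukocytes, was at 1.5 in the phf14 and 0.63 in the standard morpholino library (log2 ratio 0.62). It is a low gene: it reached the minimum mean through the phf14 morpholino library, and its ratio ran from 0.21 to 1.13 over the pseudocounts tried. The class II genes were pik3c2a, at 8.34 in the phf14 and 5.98 in the standard morpholino library (0.42), and pik3c2b, at 6.54 in the phf14 and 5.00 in the standard morpholino library (0.33). The class II pair therefore had similar ratios. The PI 4-kinase gene pi4k2b was at 22.19 in the phf14 and 16.49 in the standard morpholino library (0.41). pip4k2aa and the regulatory subunit gene pik3r3b both had 0.23. The lowest ratio was that of pik3c3, the class III kinase of autophagy and endosomes, at 1.25 in the phf14 and 1.07 in the standard morpholino library (0.12). A further 6 genes matched the kinase symbols but were under the minimum, and 4 of those were higher in the phf14 morpholino library. With them the kinase median was 0.23.

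Myotubularin genes were higher in 6 of 7 cases (85.7%, against 62.3% of all genes), or 5 of 7 relative to the median gene, where mtmr3 fell below 0. mtmr14, which encodes a phosphoinositide phosphatase, was at 7.78 in the phf14 and 2.35 in the standard morpholino library (log2 ratio 1.39). It had the highest ratio among the 352 genes of its level bin and the sixth highest of all 3524. The next 3 were close together: mtmr10 was at 6.39 in the phf14 and 4.55 in the standard morpholino library (0.41), mtmr8 at 8.85 in the phf14 and 6.42 in the standard morpholino library (0.41), and mtmr4 at 4.56 in the phf14 and 3.21 in the standard morpholino library (0.40). The group contains active phosphatases, such as those of mtmr3 and mtmr4, and catalytically inactive relatives that act as adaptors. The inactive relatives did not move as a block: mtmr10 had 0.41, mtmr9 0.22 and mtmr12, at 5.38 in the phf14 and 5.41 in the standard morpholino library, -0.01. mtmr3 was at 1.08 in the phf14 and 0.94 in the standard morpholino library (0.10). It reached the minimum mean only through the phf14 morpholino library, which favours its count as a higher gene. Without the minimum the myotubularin median was 0.22. Without a replicate, the distance between mtmr14 and the rest of its group has no error. Genes of its level bin had an SD of 0.37 in log2 ratio, which includes true differences between genes.

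Oxysterol-binding protein genes, whose products exchange lipids at membrane contacts, had 3 members that reached the minimum, in no common direction. osbpl2b was at 2.76 in the phf14 and 1.61 in the standard morpholino library (0.53). osbpl5, which exchanges phosphatidylserine for a phosphoinositide at the plasma membrane, was at 3.14 in the phf14 and 3.92 in the standard morpholino library (-0.25). osbpl1a was level, at 1.10 in the phf14 and 1.13 in the standard morpholino library (-0.02). A further 3 genes of this group were under the minimum, all higher in the phf14 morpholino library, where 62.3% of all genes were higher. With them the group median was 0.13.

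The minimum mean of 1 left out 22 genes with a matching symbol, of which 15 were higher in the phf14 morpholino library. Of all genes that reached the minimum, 62.3% were higher. Among those just inside it were mtmr3 (mean 1.01), pla2g4f.2 (1.04), cyp2aa6 and pik3cd (both 1.06). Just outside were cyp11c1 (0.94), cyp2r1 (0.84), cyp26c1 (0.81), pla2g12b (0.78) and lpin1 (0.76). Values under the minimum lay between 0.17 and 1.01 in the phf14 and between 0.14 and 1.05 in the standard morpholino library. Of the 61 members, 5 passed with a value under 1 in 1 library, in each case the standard morpholino library.

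Other lipid genes outside the symbol rule were taken from 8 lists of 463 symbols, of which 109 were among the deposited genes. Described here are the 84 of them with a mean of at least 1. In these, 48 were higher (57.1%, against 62.3% of all genes) and 36 lower with the phf14 morpholino. The median log2 ratio was 0.05 (0.11 over all genes). Past 1.5-fold there were 2 higher and 6 lower, where 4.97% and 2.87% of all genes passed. Lipid transport and storage genes had the lowest median, -0.27, with 9 of 13 lower, against 37.2% of all genes. The list shares 3 genes (apoc1, apoeb and mttp), all lower, with the yolk syncytial layer markers above. In the list the lipoprotein gene apoc2 was at 8.56 in the phf14 and 19.06 in the standard morpholino library (-1.07), and the cholesterol exporter gene abca1b at 8.0 in the phf14 and 12.64 in the standard morpholino library (-0.60). The highest of that list was the lipid droplet gene bscl2 (0.23).

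**Figure D4:**
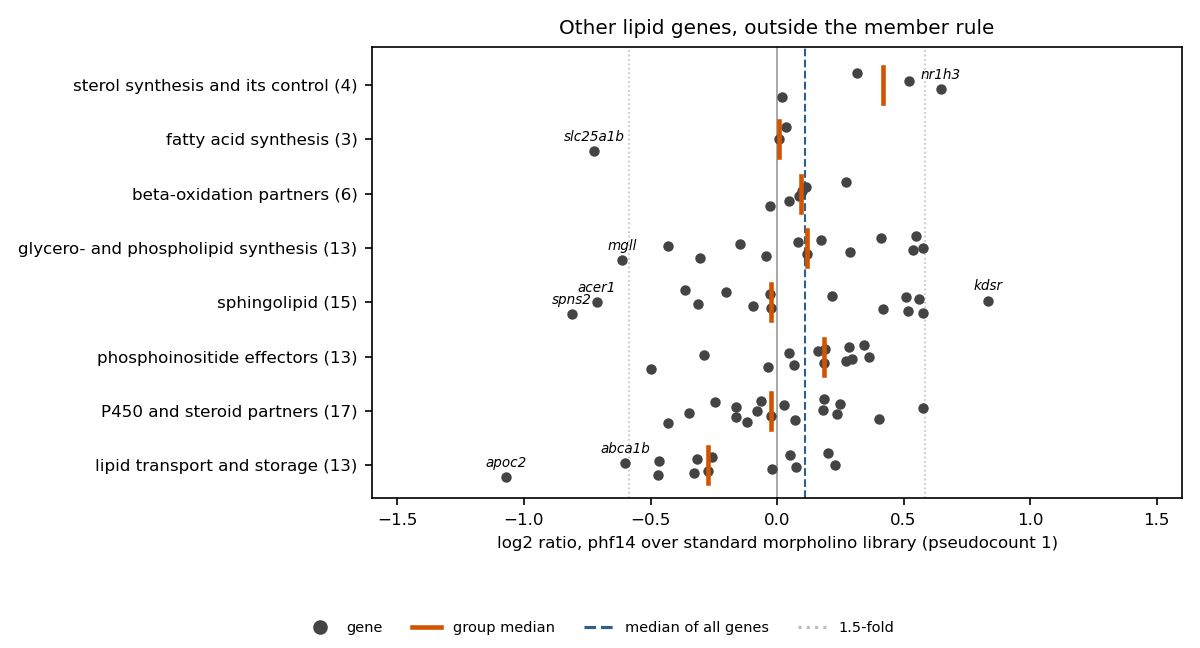
Log2 ratio of the phf14 over the standard morpholino library for 84 lipid genes outside the symbol rule (points), by list with the number of genes, with list medians (bars), the all-gene median of 0.11 (dashed) and 1.5-fold (dotted). Lipid transport genes have the lowest median (-0.27), and the sphingolipid list spreads from -0.81 to 0.83.

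Sphingolipid genes spread widely about a median of -0.02 (-0.13 relative to the median gene), with 7 of 15 higher (46.7%, against 62.3% of all genes). kdsr, a reductase of ceramide synthesis, was at 6.72 in the phf14 and 3.33 in the standard morpholino library (0.83). The alkaline ceramidase gene acer1 was at 29.93 in the phf14 and 49.66 in the standard morpholino library (-0.71). The sphingosine phosphate exporter gene spns2 was at 1.56 in the phf14 and 3.49 in the standard morpholino library (-0.81). Roles did not sort by direction: the lysosomal ceramidase gene asah1a had 0.52, and the ceramide synthesis genes cers2b and degs1 had -0.36 and -0.20. Other ceramide synthesis genes were higher, with 0.51 for cers2a, the duplicate of cers2b, and 0.58 for sptlc2a.

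Genes of phosphoinositide turnover outside the symbol rule were higher in 10 of 13 cases (76.9%, against 62.3% of all genes). Relative to the median gene 8 of 13 were above, and the median was 0.18. They ran from the lipid transfer protein gene pitpnc1b, at 22.77 in the phf14 and 32.53 in the standard morpholino library (-0.50), to the diacylglycerol kinase gene dgke (0.36). Relative to genes of like level, 7 of 13 were above. Of the 35 symbols in the sterol list, only 7 were among the deposited genes, and 4 of those had a mean of at least 1. All 4 were higher, with a median of 0.42, and 3 of 4 were above genes of like level. They ran from erlin2 (0.02, below 0 after centring, and -0.16 relative to genes of like level) to the liver X receptor gene nr1h3. The latter was at 3.95 in the phf14 and 2.16 in the standard morpholino library (0.65).

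Fatty acid synthesis genes had a median of 0.01 (below 0 after centring), from the citrate carrier gene slc25a1b, at 3.85 in the phf14 and 7.0 in the standard morpholino library (-0.72), to mid1ip1l (0.04). Beta-oxidation partners had a median of 0.09 (below 0 after centring), from bdh2 (-0.03) to the peroxisomal enzyme gene ehhadh (0.27). Glycerolipid and phospholipid genes had a median of 0.12, next to the 0.11 of all genes. They ran from the monoacylglycerol lipase gene mgll, at 17.91 in the phf14 and 27.92 in the standard morpholino library (-0.61), to the phosphatidylcholine synthesis gene pcyt1ba (0.58). Partners of P450, steroid and retinoid enzymes had a median of -0.02, from the retinol dehydrogenase family gene dhrs9 (-0.43) to the retinoic acid receptor gene rarga (0.58). The P450 reductase genes pora and porb, whose enzyme supplies electrons to microsomal P450s, had log2 ratios of 0.24 and 0.03, the second below 0 after centring.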

How the data were processed

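Per the labels' protocols, an Illumina TruSeq kit was used on 1 ug of total RNA per library. The authors deposited 1 expression signal per gene and library, with at most 2 decimals and no negative value. For the unit, aligner, genome build and quantification the sources used here give nothing.

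From these values log2(value + 1) in the phf14 morpholino library minus that in the standard morpholino library was computed for 3524 genes with a mean of at least 1 (Python 3.11.15, pandas 2.3.3). Thresholds of 1.5-fold and 2-fold only describe these libraries. The code was checked on simulated 2-fold changes with little noise, in genes with a standard morpholino value of at least 10. That check says nothing about noise in these libraries or about lower values. Alternatives were pseudocounts of 0.1 and 5, 3 other scalings and other minimum means. All 61 members had a RefSeq symbol match; 59 carried an Ensembl identifier, all found in the gene name table. No sequence was used. Values of 2 members are not reported here singly, though counts and medians include them.

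The members, role groups and gene lists were chosen with earlier results of these data known. Genes named were members past 1.5-fold, the ends of each role group, all P450 members and duplicate pairs differing by over 0.5, and, in other lists, genes past 1.5-fold and both ends. Further genes, the CYP2 and cyp2aa subsets and the sum of the hadhaa and hadhab values were added after values were seen.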

Additional observations from a re-analysis of the deposited data

How the results depend on the processing

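The median log2 ratio of the 61 genes was 0.11 and ran from 0.0036 (centred on the median gene) to 0.19 (pseudocount of 0.1), and was 0.0155 with a mean of at least 5 (23 genes). The 2 genes higher past 1.5-fold became 4 with a pseudocount of 0.1. They became 1 with a pseudocount of 5, after centring on the median gene or on genes of like level, with the trimmed mean factor, with a mean of at least 5 or past 2-fold. The 4 lower genes became 3 after centring on genes of like level or with a mean of at least 5, 2 with a pseudocount of 5 and 1 past 2-fold. Medians of 3 role groups changed sign. That of the oxidation genes was -0.0534 after centring on the median gene, -0.0479 with the trimmed mean factor and -0.11 after centring on genes of like level. That of the hydroxysteroid dehydrogenases went to -0.59 with a mean of at least 5, and that of the oxysterol-binding proteins to 0.13 without a filter. The P450 median stayed between -0.33 and -0.06, the kinase median between 0.15 and 0.41 and the myotubularin median between 0.22 and 0.46. Of single members 49 of 61 kept their sign under every alternative, and the other 12 lay within 0.13 of 0. Ratios of mtmr14 (0.80 to 1.69), hadhaa (-1.54 to -0.75) and pik3cd (0.21 to 1.13) shifted with the pseudocount beyond the SD of genes at their level, which weighs most on low values. Centring on the median gene took 0.11 from every ratio. The trimmed mean factor multiplied the phf14 morpholino values by 0.9062. Other minimum means changed which genes were counted. No further cause of the moves was tested. No paired analysis was possible because there is 1 library per condition, which also leaves no library to drop.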
